A study of Caenorhabditis elegans with 15 samples.

Results

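The far genes of Caenorhabditis elegans encode fatty acid and retinol binding proteins, and the 8 members *far-1* to *far-8* were taken by their symbols from a table of 16259 genes. The family was chosen because *far-3* was higher in *sma-6* mutants, so the values of *far-3* against those mutants are given as a description and carry no test. The other 7 members were included by name, whatever their values. RNA came from whole animals at the L2 larval stage, grown on bacteria-fed plates at 20 °C. The groups were 5 libraries of the wild-type strain N2, 5 of *sma-3* mutants and 5 of *sma-6* mutants. Only the title of *sma-3* replicate 9 carries the mark 'rep', and what it means is not given. The labels give neither the alleles nor the number of animals per library, nor whether replicates were separate cultures, so p-values measure the spread between these libraries, which may be technical.

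FAR proteins are small, helix-rich carriers found in nematodes, and they bind fatty acids and retinol in a hydrophobic interior. Parasitic nematodes release FAR proteins into the host, and the fold of *C. elegans* FAR-7 with its lipid-binding pockets is known from a crystal structure. DBL-1 is a bone morphogenetic protein ligand that signals through the receptor encoded by *sma-6* and the Smad protein encoded by *sma-3*. The pathway sets body size and is also known for effects on fat stores.

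Total counts ranged from 16.5 to 48.3 M per library, and the deepest was wild-type replicate 2. The *sma-3* transcript lay between 8.86 and 10.8 CPM (counts scaled by library size and TMM factors) in *sma-3* mutants and between 22.6 and 32.5 CPM in the wild type. The *sma-6* transcript lay between 8.83 and 9.75 CPM in *sma-6* mutants and between 37.2 and 47.7 CPM in the wild type. No 2 replicates agreed within sampling noise, since chi-square divided by its degrees of freedom was 5.21 to 42.9 over 30 replicate pairs. The sample-sheet numbers in the titles run in a separate block for each genotype, so library order and genotype cannot be told apart, and a within-batch value could not be had. Genes were called in either direction at an edgeR adjusted p under 0.05 (quasi-likelihood test, Benjamini-Hochberg adjustment over the 13720 genes tested). Of the calls in *sma-3* mutants 30.2% were higher, against 65.9% with library totals in place of TMM factors. Between the mutants the same shares were 55.2% and 37.9%. In whole animals, fewer cells of a type and less RNA per cell cannot be told apart.

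The members sit at 5 places in the genome (WBcel235), and all are annotated as protein-coding. On chromosome V, *far-5* (WBGene00001389; 12995569 to 12996836, plus strand), *far-3* (WBGene00001387; 12996787 to 12997522, minus strand) and *far-4* (WBGene00001388; 12998427 to 12999659, minus strand) lie side by side. The 3′ ends of *far-3* and *far-5* overlap on opposite strands by 50 bases, which is 7.43% of the exon length of *far-3* and 7.63% of that of *far-5*. Libraries were made with a strand-marking kit, but whether reads were counted by strand is not given in the sources used here, so reads of this overlap are uncertain. On chromosome III, *far-1* (WBGene00001385; 9080371 to 9081179, minus strand) and *far-2* (WBGene00001386; 9081828 to 9082511, plus strand) point away from each other with 648 bases between their starts. Also on chromosome III, *far-8* (WBGene00001392) spans 842930 to 843802 on the plus strand. *far-6* (WBGene00001390; chromosome IV, 13328359 to 13329314, plus strand) and *far-7* (WBGene00001391; chromosome II, 319789 to 321110, plus strand) stand alone. Coding lengths run from 414 bases in *far-7* to 696 bases in *far-8*, and no gene outside the family overlaps a member.

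The level per exon length spanned more than 4 orders of magnitude within the family. In the wild type, *far-1* stood first at 4023 ± 278 CPM per kb (SD, n = 5), followed by *far-2* at 545 ± 121 and *far-8* at 123 ± 13.6 CPM per kb. *far-6* followed at 32.3 ± 3.10 CPM per kb and *far-7* at 20.5 ± 1.67 CPM per kb (SD, n = 5). Each of these members was above the next in every wild-type library. *far-3* at 6.89 ± 3.53 and *far-5* at 6.19 ± 1.01 CPM per kb (SD, n = 5) overlapped and could not be ordered. *far-4* came last at 0.105 ± 0.0903 CPM per kb (SD, n = 5).

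The order of the members in *sma-3* mutants was the same except for the overlapping pair *far-3* and *far-5*. In *sma-6* mutants *far-3* reached 44.5 ± 25.0 CPM per kb (SD, n = 5) and its range, 18.98 to 74.7, took in the whole range of *far-6*, 35.5 to 43.9 CPM per kb. *far-3* and *far-5*, which overlapped in the other genotypes, did not overlap there, since *far-5* was between 8.01 and 10.06 CPM per kb.

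**Figure D1:**
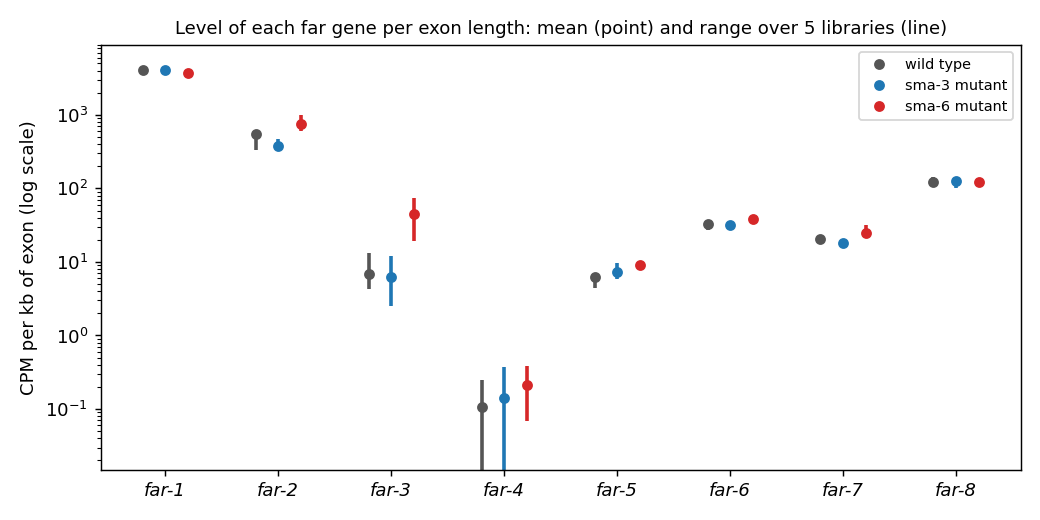
Level of each far gene per kb of exon (CPM per kb, log axis) in the 3 genotypes, with the mean as a point and the range over 5 libraries as a line; a line that meets the lower edge includes a library at 0. *far-1* leads in every genotype and *far-4* is last, while *far-3* moves from beside *far-5* to beside *far-6* in *sma-6* mutants.

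The *far-3* transcript was higher in every *sma-6* library than in any other library. It was measured at 8.80, 4.24, 3.61, 3.67 and 2.87 CPM in wild-type replicates 1 to 5. In *sma-6* mutants it was at 22.5, 18.7, 45.5, 12.8 and 50.3 CPM in replicates 1, 2, 3, 4 and 6. The *sma-6* libraries thus fell into a wide span, with replicates 3 and 6 high and replicate 4 nearest to the wild type. The means were 4.64 ± 2.38 and 30.0 ± 16.8 CPM (SD, n = 5), a ratio of 6.46, and the fitted log2 fold change was 2.69 ± 0.47 (SE). Leaving out any library in turn or changing the processing kept the fitted value between 2.27 and 3.03. This range describes a gene chosen for its rise and supports nothing. Against *sma-3* mutants the log2 difference was 2.80 ± 0.47 (SE), and it shares the *sma-6* libraries for which the gene was chosen.

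In *sma-3* mutants *far-3* was split within the genotype. It was at 7.87 CPM in replicate 2 and 8.05 CPM in replicate 9, close to wild-type replicate 1. In replicates 3, 4 and 5 it was at 1.87, 1.79 and 1.69 CPM, below all wild-type libraries. The mean of 4.25 ± 3.39 CPM (SD, n = 5) did not differ from the wild type beyond this spread, and the log2 difference was -0.11 with a 95% interval from -1.18 to 0.96 (edgeR adjusted p = 0.916). Counts of *far-3* ranged from 32 in *sma-3* replicate 3 to 1042 in *sma-6* replicate 6, so counting error, 17.7% at the lowest count, is small beside these differences. This comparison uses the same wild-type libraries as the one by which *far-3* was chosen.

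**Figure D2:**
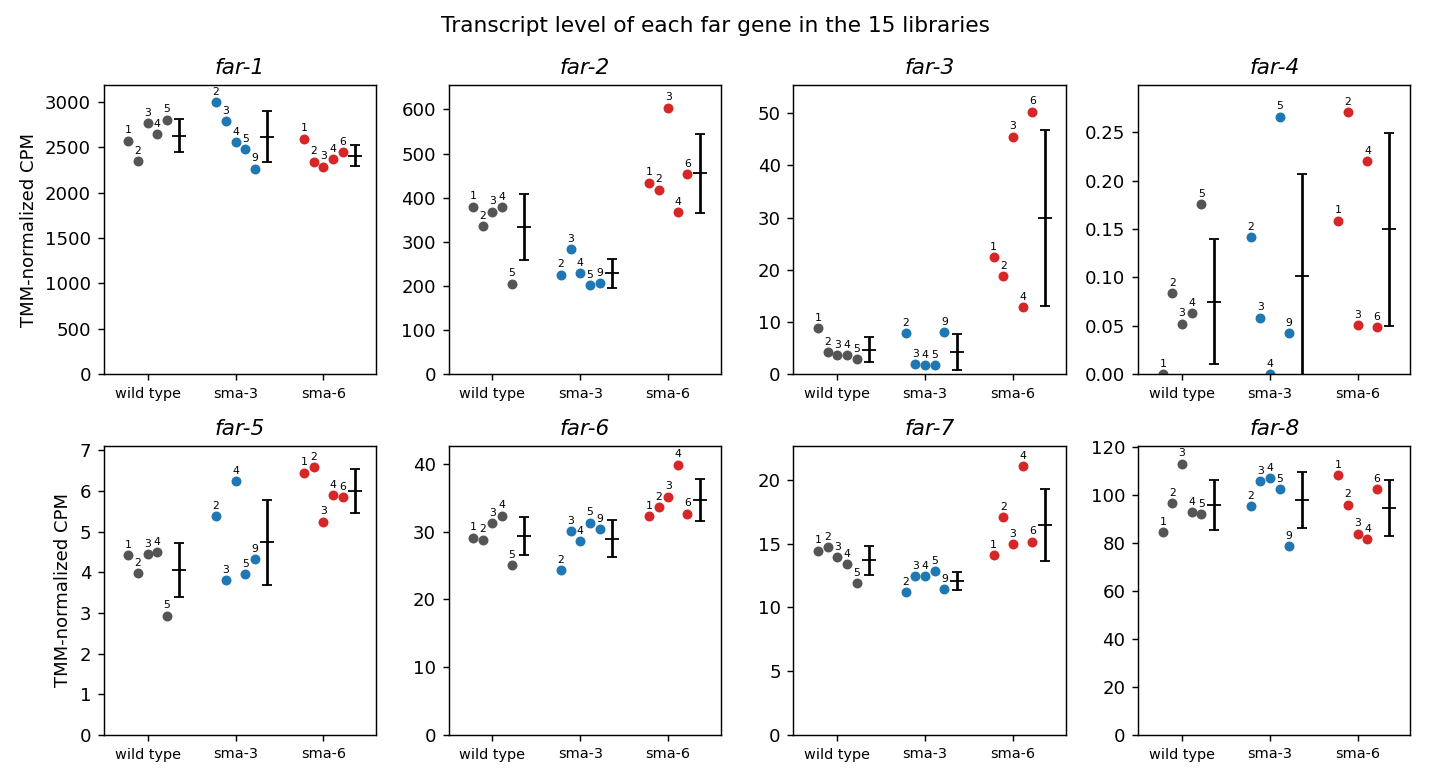
TMM-normalized CPM of each far gene in the 15 libraries; numbers beside the points are replicate numbers from the labels, and the bar at the right of each group is the mean ± SD (n = 5). The 5 *sma-6* points of *far-3*, 12.8 to 50.3 CPM, lie above all other libraries, and the *sma-3* points form a pair near 8 CPM and a trio below 2 CPM.

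Library-to-library variation set *far-3* apart from the other members within each genotype. The pooled SD of its log2 level between libraries of the same genotype was 0.83, and 99.9% of the 13720 genes tested had a smaller value. *far-2* followed at 0.29, above 84.5% of genes. The other 5 members fitted ran from 0.11 in *far-1* to 0.22 in *far-5*, around the median of 0.17 over all genes tested.

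**Figure D3:**
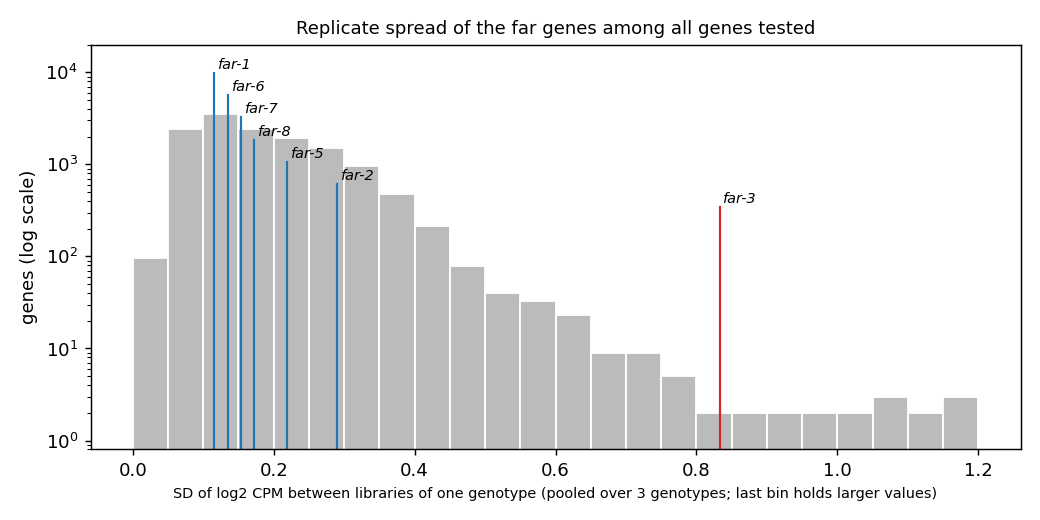
Number of tested genes (log axis) by the SD of log2 CPM between libraries of the same genotype, with a line at each far gene. *far-3* lies at 0.83 in the far tail, and the other 6 members fitted lie between 0.11 and 0.29.

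The *far-3* deviations were not shared by its relatives. Over the 15 libraries, with each genotype centred on its own mean, *far-3* had a Pearson r of 0.09 with its overlapping neighbour *far-5* and 0.31 with *far-2*, and negative values with *far-6*, *far-7* and *far-8* down to -0.46. These are descriptions over libraries that share a depth and a scaling. The pair most alike was *far-6* and *far-7*, with an r of 0.66.

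Searched in the same way, the 5 genes most like *far-3* among 11654 others were *apc-2* (r = 0.90), *mrpl-46* (0.88), *mat-2* (0.88), *miro-1* (0.87) and *T25G12.13* (0.87). All of them had their lowest *sma-3* value in replicate 5, as *far-3* had. They were picked for this likeness, so the high r and the shared low library come with the choice. How high an r such a search gives by chance was not tested. Their spread was much smaller, with pooled SDs of 0.07 to 0.35 on the log2 scale against 0.83 for *far-3*. None of the 5 was called in *sma-6* mutants against wild type, where *T25G12.13* had the largest log2 fold change at 0.43 (edgeR adjusted p = 0.263).

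Summed molting genes, a list of 12, whose transcripts cycle with each larval stage, are given beside *far-3*. In *sma-3* mutants they were highest in replicates 2 and 9, at 6065 and 5722 CPM, the same libraries in which *far-3* was high, and lay between 4150 and 5352 CPM in replicates 3, 4 and 5. In *sma-6* mutants replicate 4 was lowest for both, with 4978 CPM for the list, but replicate 6, where *far-3* was highest, had a sum of 5729 CPM, below replicates 1 and 3 at 6582 and 6808 CPM. In the wild type the orders differed, since replicate 5 had the highest molting sum, 6166 CPM, and the lowest *far-3*. The sums of the epidermal and of the lipocalin-related genes were also highest in *sma-3* replicates 2 and 9. They were 880 and 765 CPM for the epidermal genes and 2130 and 1847 CPM for the lipocalin-related genes. Among the *sma-6* libraries both sums were lowest in replicate 4, so this order was not particular to molting genes. In the wild type both were highest in replicate 5, where *far-3* was lowest. The part of these lists in the *far-3* values was not tested.

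The question whether other members were also higher in *sma-6* mutants was read from the same fit. Of the 6 members fitted beside *far-3*, 1 was called against the wild type, *far-5*, and it was higher, where 6.50% of all genes were called in either direction and 3.00% were called higher. Nothing is read from that count, since the comparison is the one that chose the family. The median log2 fold change of the 7 members fitted, *far-3* included, was 0.27 and that of all genes tested was 0.01. Nothing is read from this median either, since it includes *far-3* and comes from the same comparison.

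*far-5* rose in *sma-6* mutants, and by less than *far-3*. It was at 4.43, 3.99, 4.44, 4.49 and 2.93 CPM in wild-type replicates 1 to 5, of which replicate 5 was lowest. It was at 6.45, 6.59, 5.25, 5.90 and 5.84 CPM in *sma-6* replicates 1, 2, 3, 4 and 6. All 5 *sma-6* libraries lay above the wild type, as was the case for 3.73% of all genes tested. The log2 fold change was 0.57 ± 0.15 (SE; edgeR adjusted p = 0.0282), with p = 0.00794 by exact permutation (two-sided), the smallest that 5 libraries against 5 allow. Without wild-type replicate 2 or 5, or *sma-6* replicate 1 or 2, the call was lost, with adjusted p from 0.0576 to 0.0778. Reads in the 50 shared bases could belong to either gene, and their part in the *far-5* values was not tested. Among the *sma-6* libraries *far-5* ranged over 1.26-fold and *far-3* over 3.94-fold.

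*far-2*, *far-6* and *far-7* were not called against the wild type. Exact permutation (two-sided, not adjusted over genes) gave p = 0.0317 for *far-2*, 0.0159 for *far-6* and 0.0317 for *far-7*. For each of them 4 of 5 *sma-6* libraries lay above all wild-type libraries. The share of all genes with that order is not given here, so nothing is read from it. *far-2* averaged 333 ± 73.9 CPM in the wild type and 455 ± 89.2 CPM in *sma-6* mutants (SD, n = 5), a difference of 0.45 on the log2 scale with a 95% interval from 0.13 to 0.77 (edgeR adjusted p = 0.0892). *far-6* averaged 29.3 ± 2.81 and 34.7 ± 3.10 CPM (SD, n = 5), and the log2 difference was 0.24 with an interval from 0.07 to 0.42 (edgeR adjusted p = 0.0911). *far-7* averaged 13.7 ± 1.11 and 16.5 ± 2.81 CPM (SD, n = 5), and the log2 difference was 0.27 with an interval from 0.05 to 0.48 (edgeR adjusted p = 0.127). DESeq2 called *far-2* with an adjusted p of 0.0498, and no alternative called *far-6* or *far-7*.

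*far-1* and *far-8* gave values at or below those of the wild type. *far-1*, the most abundant member, averaged 2627 ± 181 CPM in the wild type and 2408 ± 119 CPM in *sma-6* mutants (SD, n = 5), a difference of -0.13 on the log2 scale with an interval from -0.28 to 0.03 (edgeR adjusted p = 0.364). *far-8* averaged 96.0 ± 10.6 and 94.6 ± 11.6 CPM (SD, n = 5), and the log2 difference was -0.02 with an interval from -0.23 to 0.18 (edgeR adjusted p = 0.931). For these 2 members the intervals leave out a 1.5-fold rise and allow smaller changes.

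*far-4* was near the limit of detection in all genotypes and did not pass the filter on low counts. It had 0 to 4 counts in the wild-type libraries, 0 to 6 in the *sma-3* libraries and 1 to 6 in the *sma-6* libraries, with 9, 11 and 16 counts per genotype in all. A floor of 3 counts corresponds to 0.0626 to 0.190 CPM, so a rise like that of its neighbour *far-3* cannot be read from counts this low, and no fold is given. Exact permutation tests of its levels (two-sided) gave p = 0.722 in *sma-3* mutants, 0.222 in *sma-6* mutants and 0.429 between the mutants, which at these counts does not show that the genotypes are alike.

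**Figure D4:**
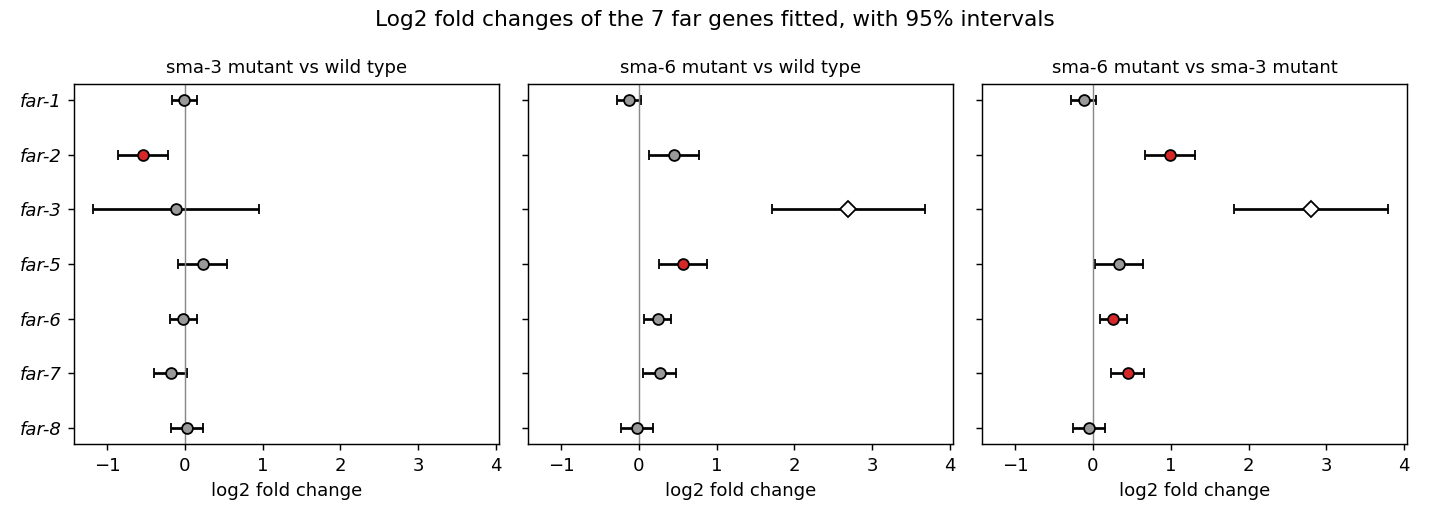
Log2 fold changes of the 7 far genes fitted (points) with 95% intervals (bars) in the 3 comparisons; red points passed an adjusted p of 0.05, grey points did not, and white diamonds mark *far-3* in comparisons with *sma-6* mutants, where it was chosen by its values and not tested. *far-2* lies at -0.54, 0.45 and 0.99 in the 3 panels.

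In *sma-3* mutants the member that changed was *far-2*, and it fell. Of the 7 members fitted it was the 1 that passed, where 14.6% of all genes were called in either direction and 10.2% were called lower, so the count itself is near the background. *far-2* was at 379, 335, 368, 379 and 205 CPM in wild-type replicates 1 to 5. It was at 226, 283, 229, 201 and 205 CPM in *sma-3* replicates 2, 3, 4, 5 and 9. All *sma-3* libraries lay below wild-type replicates 1 to 4, while wild-type replicate 5 was level with the lowest *sma-3* libraries. The log2 fold change was -0.54 ± 0.15 (SE; edgeR adjusted p = 0.0254; p = 0.0397 by exact permutation, two-sided), and the authors' deposited table gives -0.53 with a false discovery rate of 0.0305.

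The *far-2* call in *sma-3* mutants depended on single libraries. It was lost without wild-type replicate 1, 2, 3 or 4 or *sma-3* replicate 4, 5 or 9, with adjusted p from 0.0552 to 0.0725. Without wild-type replicate 5 the log2 fold change was -0.67 (edgeR adjusted p = 0.00106).

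The other members fitted did not pass in *sma-3* mutants. Their log2 fold changes ran from -0.18 in *far-7* to 0.23 in *far-5*, with adjusted p from 0.242 to 0.976. The 95% interval of *far-1* was -0.16 to 0.15, that of *far-6* was -0.19 to 0.16 and that of *far-8* was -0.18 to 0.23. That of *far-5* was -0.09 to 0.55 and that of *far-7* was -0.40 to 0.03. Exact permutation (two-sided, not adjusted over genes) gave p = 0.0476 for *far-7* and 0.286 to 0.929 for the rest.

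Directly compared, the mutants differed most firmly in *far-2*. All 5 *sma-6* libraries, at 434, 418, 604, 366 and 454 CPM in replicates 1, 2, 3, 4 and 6, lay above all *sma-3* libraries, of which the highest was 283 CPM, an order that 8.34% of all genes tested showed. The log2 difference was 0.99 ± 0.15 (SE; edgeR adjusted p = 0.000435; p = 0.00794 by exact permutation, two-sided). It kept its call in all 23 alternatives, with differences from 0.80 to 1.08 and adjusted p from 4.78e-08 to 0.00594. Wild-type replicates 1 to 4, at 335 to 379 CPM, lay above all *sma-3* libraries and overlapped with *sma-6* replicate 4.

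*far-7* and *far-6* also differed between the mutants and were higher in *sma-6*, with no overlap between the libraries. Of all genes tested, 8.34% showed this order. *far-7* was at 11.2, 12.5, 12.5, 12.9 and 11.4 CPM in *sma-3* replicates 2, 3, 4, 5 and 9. It was at 14.1, 17.1, 14.9, 21.1 and 15.2 CPM in *sma-6* replicates 1, 2, 3, 4 and 6, of which replicate 4 was highest. Its log2 difference was 0.45 ± 0.10 (SE; edgeR adjusted p = 0.00472). *far-6* lay between 24.3 and 31.3 CPM in *sma-3* mutants and between 32.3 and 39.9 CPM in *sma-6* mutants, a log2 difference of 0.26 ± 0.08 (SE; edgeR adjusted p = 0.0302). The *far-6* call was lost without wild-type replicate 2 or 3, *sma-3* replicate 2, 4 or 9 or *sma-6* replicate 3 or 4, and over all alternatives its adjusted p ran from 0.0171 to 0.120.

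Of the 6 members fitted beside *far-3*, 3 were called between the mutants, all higher in *sma-6* mutants, where 23.1% of all genes were called in either direction and 12.7% were called higher. *far-3* is left out of the count because it was chosen with these *sma-6* libraries in view. *far-5* had a log2 difference of 0.34 with an interval from 0.03 to 0.64 (edgeR adjusted p = 0.105). *far-1* had -0.12 with an interval from -0.28 to 0.04 (edgeR adjusted p = 0.261), and *far-8* had -0.05 with an interval from -0.25 to 0.15 (edgeR adjusted p = 0.748). With library totals in place of TMM factors, *far-1* was called lower in the *sma-6* libraries (log2 difference -0.18, edgeR adjusted p = 0.0421).

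The neighbours *far-1* and *far-2* differed in how they varied with genotype. Per exon length *far-2* was 13.7% ± 3.32 of *far-1* in the wild type, 9.35% ± 1.08 in *sma-3* mutants and 20.3% ± 4.60 in *sma-6* mutants (SD, n = 5). The ranges were 8.03% to 10.9% in *sma-3* mutants and 16.5% to 28.2% in *sma-6* mutants, which do not overlap. Wild-type replicate 5 had the lowest value of all, 7.80%. Within genotypes the deviations of the pair had an r of -0.04.

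The sum over the 8 members was 3108 ± 172 CPM in the wild type, 2995 ± 306 CPM in *sma-3* mutants and 3045 ± 128 CPM in *sma-6* mutants (SD, n = 5), with overlapping ranges. Most of it was *far-1*, so changes in the rarer members hardly touched the total. By level per exon length, *far-1* made up 84.6%, 87.7% and 79.0% of the family in the wild type, *sma-3* and *sma-6* mutants. *far-2* made up 11.5%, 8.19% and 15.9%, and *far-3* made up 0.146%, 0.140% and 0.945%.

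Genes beside the members were read as well. Next to the chromosome V run, *dsl-7* lies 744 bases from *far-5* and *inft-2* lies 2657 bases from *far-4*. *dsl-7*, a Notch-ligand-like gene, rose in *sma-3* mutants from 2.10 ± 0.625 to 4.18 ± 0.559 CPM (SD, n = 5), a difference of 0.97 on the log2 scale (edgeR adjusted p = 0.00796). In *sma-6* mutants its log2 fold change was 0.40 (edgeR adjusted p = 0.325), and that of *inft-2* was 0.21 (edgeR adjusted p = 0.0981). Of the 10 nearest genes around the 5 places, none was called in *sma-6* mutants against wild type, where 6.50% of all genes were called. *dsl-7* and *F02A9.4* were the only ones of them called in *sma-3* mutants, where 14.6% of all genes were called. With these shares nothing is read from either count. *F02A9.4*, 1798 bases from *far-2*, fell in *sma-3* mutants by 0.25 on the log2 scale (edgeR adjusted p = 0.00508) and was higher in *sma-6* when the mutants were compared (0.18, edgeR adjusted p = 0.0193).

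Other lipid carriers were taken as lists, chosen with earlier results of these data known. Of the 9 intracellular lipid binding protein genes, which carry fatty acids within cells, 4 fell in *sma-3* mutants, where 10.2% of all genes were called lower, and none rose, with a median log2 fold change of -0.28 against 0.01 over all genes. These were *lbp-4* (-0.52), *lbp-6* (-0.43), *lbp-9* (-0.28) and *lbp-5* (-0.28), with edgeR adjusted p of 0.00304, 0.00327, 0.0203 and 0.0431. In *sma-6* mutants *lbp-6* fell (-0.32, edgeR adjusted p = 0.0237) and *lbp-8* rose (0.85, edgeR adjusted p = 0.0441), where 6.50% of all genes were called. Between the mutants 4 of 9 were higher in *sma-6* mutants, where 12.7% of all genes were called higher, and none was lower, among them *lbp-9* (0.54, edgeR adjusted p = 0.000199) and *lbp-8* (1.19, edgeR adjusted p = 0.00297).

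Of the 7 lipocalin-related genes, in *sma-3* mutants *lpr-2* rose (0.48, edgeR adjusted p = 0.00122) and *lpr-1* fell (-0.35, edgeR adjusted p = 0.0433). In that comparison 14.6% of all genes were called in either direction. *lpr-7* fell in *sma-6* mutants (-0.46, edgeR adjusted p = 0.0386), where 6.50% of all genes were called. Between the mutants *lpr-6* (0.37) and *lpr-1* (0.32) were higher in *sma-6* mutants, and *lpr-7* (-0.70) and *lpr-2* (-0.35) were lower. There 23.1% of all genes were called. Of 6 acyl-CoA binding protein genes 5 were tested, and *acbp-5* fell in *sma-3* mutants (-0.26, edgeR adjusted p = 0.0437) with none called in *sma-6* mutants. Between the mutants *acbp-5* was higher in *sma-6* mutants (0.29, edgeR adjusted p = 0.0163). The same shares of all genes called, 14.6%, 6.50% and 23.1%, stand beside these counts, and nothing is read from them.

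Tissue and stage markers are given beside *far-2*. The 5 germline genes summed to between 299 and 459 CPM in the wild type, 310 and 379 CPM in *sma-3* mutants and 408 and 534 CPM in *sma-6* mutants. Wild-type replicate 5 was lowest and replicate 1 highest in the group for both this sum and *far-2*. *sma-3* replicate 5 was lowest in its group for both, and *sma-6* replicate 3 was highest in its group for both. The other extremes differed. In *sma-3* mutants the sum was highest in replicate 2 and *far-2* in replicate 3. In *sma-6* mutants the sum was lowest in replicate 1 and *far-2* in replicate 4. Of the 5 genes 3 differed between the mutants, higher in *sma-6* (*pgl-1*, *glh-1* and *glp-1*, by 0.46 to 0.65 on the log2 scale), where 12.7% of all genes were called higher, and none was called against the wild type. The 6 intestinal genes in the table summed to 3122 to 3502 CPM in the wild type, 2472 to 2988 CPM in *sma-3* mutants and 2927 to 3107 CPM in *sma-6* mutants. Of them 4 fell in *sma-3* mutants, where 10.2% of all genes were called lower, and 2 in *sma-6* mutants, where 6.50% were called in either direction, between -0.25 and -0.53 on the log2 scale. The part of germline and intestine in the *far-2* values was not tested.

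Of the 5 body-wall muscle genes, *myo-3* rose in *sma-3* mutants (0.33), where 14.6% of all genes were called in either direction. *unc-22* and *unc-54* rose in *sma-6* mutants (0.52 and 0.43), where 3.00% of all genes were called higher. Between the mutants *unc-22* (0.45) and *unc-54* (0.39) were higher in *sma-6* mutants and *myo-3* (-0.28) was lower, where 23.1% of all genes were called. The summed level of the 5 was 9040 to 11673 CPM in the wild type, 10658 to 11974 CPM in *sma-3* mutants and 12098 to 14548 CPM in *sma-6* mutants. None of the 6 epidermal, 4 pharyngeal and 6 neuronal genes was called against the wild type in either mutant, and of the molting genes *fbn-1* fell in *sma-3* mutants (-0.68, edgeR adjusted p = 0.0219). Between the mutants *fbn-1* (0.84), *noah-1* (0.41) and *mlt-11* (0.40) were higher and *nas-36* (-0.35) was lower in *sma-6* mutants, so 4 of 12 molting genes were called, where 23.1% of all genes were. Of 15 yolk and oocyte genes, which would mark adults or embryos among the larvae, 10 were tested and none was called against the wild type. Their sum was 301 CPM in wild-type replicate 3 and between 26.7 and 64.2 CPM in the other 14 libraries. When the mutants were compared, *oma-1* of this list (0.50) and the epidermal *grd-10* (0.48) were higher in *sma-6* mutants. The neuronal *rab-3* (-0.21) was lower there, where 23.1% of all genes were called. No gene of any list was at 0 in a whole genotype.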

How the data were processed

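The authors deposited whole-number counts per gene for 15 poly-A RNA libraries, with CPM columns that were not used. The authors' own comparison of *sma-3* mutants with wild type, deposited as log2 values with a p-value and adjusted p-value per gene, was used for *far-2* alone. bcl2fastq, STAR 2.5.2b, featureCounts 1.5.2, limma and the build WBcel235 are named, per the submitters' processing notes.

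Counts were analysed in R 4.3.3 with edgeR 4.0.16: TMM factors, filterByExpr (minimum count 10, minimum total 15), and a quasi-likelihood fit of all 15 libraries with genotype as the only factor. Adjusted p covers all 13720 genes tested. The F statistic gave standard errors and 95% intervals. CPM here are scaled by TMM factors, with 0.5 added before taking log2 for spreads, deviations and the 22 exact permutation tests run on single members. Positions and exon lengths are from Ensembl release 115. Genes like *far-3* were sought among those whose mean log2 CPM was 1 or more. The fit was tested on simulated data. Alternatives used limma 3.58.1 and DESeq2 1.42.0, RLE factors, library totals, other filters, a replicate block, the genotypes compared alone and the omission of each library. All members and the nearest genes were named, with at most 4 called genes per list. Members and lists were chosen with earlier results of these data known. Counting error and floors leave out amplification, since the labels mention no molecular identifiers. Reads shared between similar genes could not be examined.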

Additional observations from a re-analysis of the deposited data

Results flagged for a closer look

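Each member was checked in each genotype for a library far from the other 4, in 24 groups of 5 libraries, of which chance marks about 1 in 20. There were 2 such libraries. *far-2* in wild-type replicate 5 was at 205 CPM, with a gap to the next library of 0.746 of the range. *far-3* in wild-type replicate 1 was at 8.80 CPM, with a gap of 0.770 of the range.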

How the results depend on the processing

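The 21 log2 fold changes of the members were recomputed under 23 alternatives, 15 of which left out a library. In 431 of these values the direction and the side of the threshold held, in 23 a call was lost, in 3 a call was gained and in 26 the sign turned, each time in a member that had not been called. The causes were not tested. All *far-3* values in comparisons with *sma-6* mutants are among the 431. They support nothing, since *far-3* was chosen by these libraries.

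*far-1* in *sma-3* mutants turned to 0.0019 with RLE factors and 0.0019 with DESeq2, 0.011 with a filter of 1 CPM in 5 libraries, 0.0062 with the 2 genotypes alone, 0.074 with library totals and 0.054 with the replicate block. *far-6* there turned to 0.069 with library totals. With a library left out, values in *sma-3* mutants ran from -0.046 to 0.052 for *far-1*, -0.48 to 0.22 for *far-3*, -0.068 to 0.051 for *far-6* and -0.013 to 0.11 for *far-8*, and *far-8* in *sma-6* mutants from -0.081 to 0.037.

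Genes called numbered 1997 in *sma-3* mutants, 892 in *sma-6* mutants and 3169 between the mutants, and with a library left out 1156 to 3069 (without wild-type replicate 2 and 5), 613 to 963 and 2450 to 3654. Members past the threshold ran from 0 to 1, 1 to 2 and 3 to 4, the latter ranges counting *far-3*, which was chosen by these values and supports nothing.

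Replicate numbers do not pair the samples: deviations of 11 same-numbered pairs had r from -0.143 to 0.145, with 2 over 0.1. With the replicate block 879, 531 and 1089 genes were called, and members past the threshold numbered 1 (*far-2*), 1 (*far-3*, which supports nothing) and 2 (*far-2*, and *far-3* likewise). With the block adjusted p was 0.0830 for *far-5* against the wild type, and 0.0558 for *far-7* and 0.0776 for *far-6* between the mutants. *far-5* was called against the wild type in 18 of 23 alternatives, and *far-6* between the mutants in 13 of 23, with adjusted p = 0.120 under library totals and 0.0505 with the 2 genotypes alone. Depth limits *far-4*, which did not pass the filter on low counts.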
